A study of Mus musculus with 6 samples.

Results

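The cell cycle and proliferation genes described here were 47 genes whose products copy DNA, divide the chromosomes, or decide whether a cell enters or leaves the division cycle. Their expression was compared in inguinal white adipose tissue (iWAT), a subcutaneous fat depot, in 3 samples from Zip13-KO mice and 3 from their WT littermates. The genes were listed by name, of which 11 act in DNA replication, 20 in mitosis, 11 in control of the G1 phase, and 5 are inhibitors of cyclin-dependent kinases (CDKs). Each was read from probes that carry a RefSeq transcript of the gene, and 45 of the 47 could be tested among 15306 genes in all. Zip13-KO mice lack ZIP13 (gene symbol Slc39a13), a zinc transporter of intracellular membranes, in the whole body, because a Neo cassette was put in place of exons 6 to 8. Both genotypes had been backcrossed for at least 7 generations to C57BL/6J and received powdered feed, since loss of Zip13 leaves the mice with too few teeth. The study's legend to its heat map of iWAT genes gives an age of 10 weeks. Which of the study's feeds these 6 samples received, and whether each sample was 1 animal, are not given in the sources used here, so the p-values measure only the spread between these samples.

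Cells divide in a fixed order of steps. In G1, D-type cyclins with Cdk4 and Cdk6, and then E-type cyclins with Cdk2, phosphorylate the retinoblastoma protein Rb1, which frees E2F transcription factors to switch on genes for DNA replication. Genes for mitosis follow later in the cycle, and many of them are switched off in resting cells by the DREAM complex bound at a promoter element called the CHR. CDK inhibitors such as p21 (Cdkn1a), p27 (Cdkn1b) and p57 (Cdkn1c) hold the cycle back. Mature adipocytes do not divide as a rule, and the dividing cells of adult fat are known to be mostly adipocyte progenitors, endothelial cells and immune cells.

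Each sample was hybridised to 1 single-colour array, and all values below are log2 intensities after quantile normalization. Between 62.5% and 63.2% of spots were well above background on the WT arrays, and between 58.8% and 60.4% on the Zip13-KO arrays, where the median signal was lower as well. The targeted gene matched the labels, since Slc39a13 had a mean of 10.96 in the WT group (SD 0.30, n = 3) and of 6.63 in the Zip13-KO group (SD 0.15, n = 3). Of the defining markers of the labelled tissue, Adipoq, which encodes the adipocyte hormone adiponectin, was well above background on all arrays. A gene was called lower or higher when its adjusted p (limma, Benjamini-Hochberg over all genes tested) was under 0.05 and its difference was over 1.5-fold, that is over 0.58 in log2 units.

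Genes of the division machinery were mostly lower in Zip13-KO iWAT, while the genes that control G1 and the CDK inhibitors were split. Of the 45 genes tested, 29 fell, 1 rose and 15 did not pass the test. Thus 64.4% of them were called lower, against 8.38% of all genes tested, and 2.22% were called higher, against 10.3% of all genes. Every Zip13-KO array was below every WT array for 36 of the 45, where 25.9% of all genes had this order, and above for 4, where 29.2% of all genes had it. The median difference of the 45 genes, Zip13-KO minus WT, was -0.739, and that of all genes was -0.001. By role, mitosis genes had the largest median difference (-0.956), followed by replication genes (-0.701), G1 control genes (-0.189) and CDK inhibitors (-0.016). In whole tissue, fewer dividing cells and less RNA of these genes per cell cannot be told apart. Macrophage markers (14 of 17 called lower) and stromal progenitor markers (4 of 13 called lower) were lower on the Zip13-KO arrays too, and their part in these differences was not tested. The count of cell cycle genes called lower depended on single arrays, since it was 14 (31.1%) when Zip13-KO replicate 1 was left out and 17 (37.8%) when Zip13-KO replicate 3 was left out. The share of all genes called lower was 5.11% and 6.87% in those fits.

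**Figure D1:**
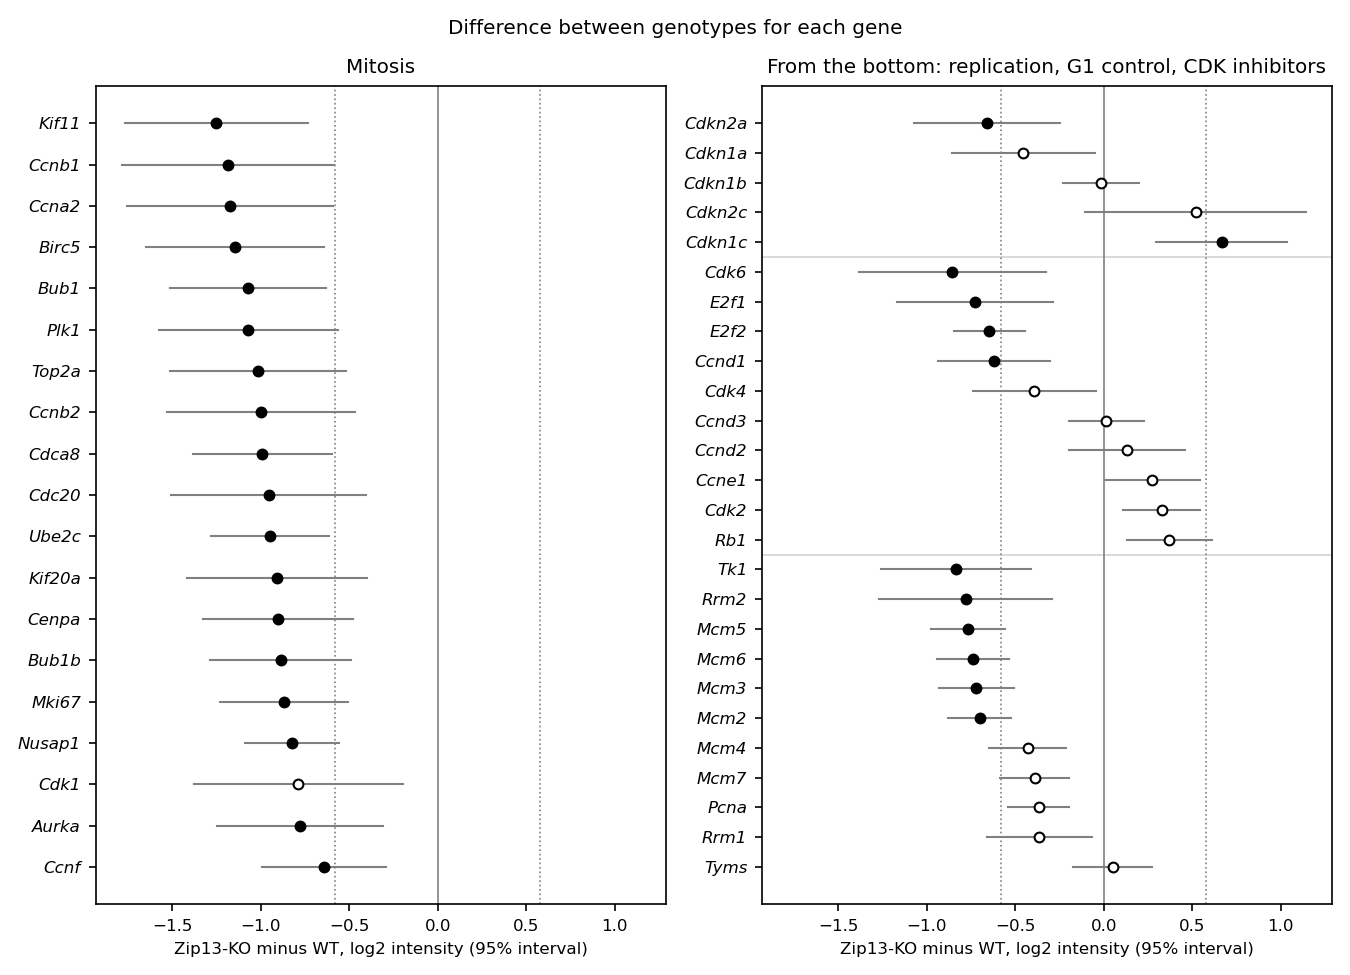
Difference between genotypes, Zip13-KO minus WT in log2 intensity, for each of the 45 cell cycle genes tested. Points are the differences of the means of 3 arrays each, bars are 95% intervals from limma, filled points are genes called lower or higher, and dotted lines mark 0.58 in either direction. All 19 mitosis genes lie left of 0, while the G1 control genes and the CDK inhibitors lie on both sides.

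Promoter sequences are given first, because replication and mitosis genes are known to carry different promoter elements. RefSeq promoter windows on GRCm38.p6, from 250 bases before to 50 bases after a gene's start, matched 38 of the 47 genes (not Ccna2, Ccnd1, Ccnd2, Ccne2, Rb1, Kif20a, Mcm4, Aurkb and Cdkn1c). All motifs were searched on both strands, and a gene with more than 1 window was counted if any window held the motif. The CHR, searched as TTTGAA, was in 13 of 17 mitosis genes (76.5%), 1 of 10 replication genes, 1 of 7 G1 control genes and 0 of 4 CDK inhibitors. It was in 15.1% of the genes tested that have a window and in 20.2% of all 27025 genes with a window. The binding box of the factor NF-Y, searched as CCAAT, was in 15 of 17 mitosis genes (88.2%) and 8 of 10 replication genes (80%). It was also in 3 of 7 G1 control genes and 3 of 4 CDK inhibitors, where 42.2% of genes tested and 41.1% of all genes had it. An E2F core, searched as TTCCCGC or TTGGCGC or TTCGCGC or TTGCCGC, was in 6 of 10 replication genes (60%) and 3 of 17 mitosis genes (17.6%). It was also in 2 of 7 G1 control genes and 2 of 4 CDK inhibitors, where 17.3% of genes tested and 10.9% of all genes had it. Of the 18 CHR matches in mitosis genes, 14 began between 100 bases before and 50 bases after the start. These matches are letters in a window and were not tested as binding sites.

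The 6 promoters that follow show these elements in the genes themselves, with the matched letters in capitals. They belong to genes called lower and were picked after the matches were known. Kif11, Plk1 and Top2a had the largest falls among mitosis genes with 1 window, a CHR and an NF-Y box. Kif11 (chr19:37376132-37376431, plus strand) and Plk1 (chr7:122159185-122159484, plus strand) each held 1 CHR, beginning 19 bases before the start and at base 31, and 1 NF-Y box. Top2a (chr11:99024140-99024439, minus strand) held 2 CHR matches and 6 NF-Y boxes.
Kif11: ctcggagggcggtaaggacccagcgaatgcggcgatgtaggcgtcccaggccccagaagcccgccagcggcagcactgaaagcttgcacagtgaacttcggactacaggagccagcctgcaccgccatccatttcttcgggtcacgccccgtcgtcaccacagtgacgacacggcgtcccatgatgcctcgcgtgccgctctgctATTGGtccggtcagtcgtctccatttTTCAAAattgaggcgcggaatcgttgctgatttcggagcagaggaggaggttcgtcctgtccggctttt
Plk1: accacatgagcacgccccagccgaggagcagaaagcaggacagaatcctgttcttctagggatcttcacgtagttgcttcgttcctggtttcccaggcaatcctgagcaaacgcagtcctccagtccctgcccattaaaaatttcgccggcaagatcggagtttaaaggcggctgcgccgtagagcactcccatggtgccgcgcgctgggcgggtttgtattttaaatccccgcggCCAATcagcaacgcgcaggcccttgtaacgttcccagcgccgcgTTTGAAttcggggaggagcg
Top2a: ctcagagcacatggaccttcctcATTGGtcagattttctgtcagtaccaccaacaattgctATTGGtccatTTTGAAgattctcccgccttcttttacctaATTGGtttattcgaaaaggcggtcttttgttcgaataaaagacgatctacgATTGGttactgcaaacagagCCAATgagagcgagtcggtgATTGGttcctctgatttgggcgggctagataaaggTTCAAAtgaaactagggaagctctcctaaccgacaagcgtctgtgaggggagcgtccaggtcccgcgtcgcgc

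Ccnb1 (chr13:100786437-100786736, minus strand) had the largest fall among the mitosis genes with 1 window that lack the CHR letters. It held 2 NF-Y boxes, the first of which overlaps an E2F core.
Ccnb1: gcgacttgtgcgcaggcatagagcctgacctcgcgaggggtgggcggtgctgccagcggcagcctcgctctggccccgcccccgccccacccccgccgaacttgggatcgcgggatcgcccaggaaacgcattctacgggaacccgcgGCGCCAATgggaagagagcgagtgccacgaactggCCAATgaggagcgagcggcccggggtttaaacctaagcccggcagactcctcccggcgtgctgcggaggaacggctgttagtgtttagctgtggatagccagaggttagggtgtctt

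Rrm2 (chr12:24708004-24708303, plus strand) and Mcm5 (chr8:75109259-75109558, plus strand) had the largest falls among replication genes with 1 window and an E2F core. Rrm2 held 1 core on the minus strand, and Mcm5 held 3, of which the last pair overlap in a single run of capitals, together with 3 NF-Y boxes. Neither held the CHR letters.
Rrm2: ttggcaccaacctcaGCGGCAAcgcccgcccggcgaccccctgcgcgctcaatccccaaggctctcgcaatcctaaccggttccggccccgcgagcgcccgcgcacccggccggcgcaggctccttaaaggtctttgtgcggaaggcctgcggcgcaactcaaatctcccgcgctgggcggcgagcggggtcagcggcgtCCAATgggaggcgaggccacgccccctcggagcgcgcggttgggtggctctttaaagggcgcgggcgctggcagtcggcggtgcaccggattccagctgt
Mcm5: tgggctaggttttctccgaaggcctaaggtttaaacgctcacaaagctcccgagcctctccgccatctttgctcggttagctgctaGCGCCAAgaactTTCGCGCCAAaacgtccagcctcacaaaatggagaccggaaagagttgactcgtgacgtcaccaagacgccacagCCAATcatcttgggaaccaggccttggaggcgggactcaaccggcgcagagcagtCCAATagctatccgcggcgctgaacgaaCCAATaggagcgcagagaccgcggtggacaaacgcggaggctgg

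DNA replication genes were lower in Zip13-KO iWAT, with 6 of 11 called lower (54.5%, against 8.38% of all genes). None was called higher, where 10.3% of all genes were. The genes called were Tk1, Rrm2, Mcm5, Mcm6, Mcm3 and Mcm2, which fell by 1.63-fold to 1.79-fold. Mcm2 to Mcm7 encode the ring that unwinds DNA at the replication fork. Mcm5 was 10.34, 10.20 and 10.29 on the WT arrays and 9.51, 9.61 and 9.41 on the Zip13-KO arrays. Mcm6 was 12.56, 12.36 and 12.48 on the WT arrays and 11.69, 11.80 and 11.69 on the Zip13-KO arrays, and Mcm3 was 11.27, 11.13 and 11.27 in WT and 10.45, 10.62 and 10.44 in Zip13-KO. Mcm2 was 9.23, 9.14 and 9.29 in WT and 8.54, 8.53 and 8.50 in Zip13-KO. In each of these 4 genes the groups were far apart and the 3 arrays within a genotype lay close together. Their differences ran from -0.77 for Mcm5 (SE 0.09, adjusted p = 0.00515) to -0.70 for Mcm2 (SE 0.07, adjusted p = 0.00479). They were called lower under each of the 18 other settings tried, which include leaving out any 1 array.

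The remaining ring subunits differed less. Mcm4 was 11.35 ± 0.09 in WT and 10.92 ± 0.10 in Zip13-KO (SD, n = 3 each), and Mcm7 was 11.78 ± 0.06 and 11.39 ± 0.09. Pcna, the sliding clamp that holds DNA polymerase on its template, was 12.64 ± 0.02 and 12.27 ± 0.06. These 3 genes passed the adjusted p (0.0164, 0.0162 and 0.0135) with every Zip13-KO array below every WT array, but their differences of -0.43, -0.39 and -0.37 were under 1.5-fold.

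Enzymes that supply nucleotides for DNA were not all alike. Thymidine kinase Tk1, which salvages thymidine, was 10.07, 9.41 and 9.63 in WT and 8.87, 8.95 and 8.78 in Zip13-KO. Its difference was -0.84 (SE 0.17, adjusted p = 0.0163), with WT replicate 1 highest and no overlap. Rrm2, the subunit of ribonucleotide reductase whose level follows S phase, was 10.15, 9.64 and 9.89 on the WT arrays and 9.14, 9.42 and 8.78 on the Zip13-KO arrays. The groups did not overlap, but Zip13-KO replicate 2 and WT replicate 2 lay only 0.22 apart, and the difference was -0.78 (SE 0.20, adjusted p = 0.0297). Rrm1, the other subunit, had a difference of -0.37 (95% interval -0.66 to -0.07) with adjusted p = 0.0618. Tyms, thymidylate synthase, was 5.79, 5.75 and 5.61 in WT and 5.88, 5.68 and 5.73 in Zip13-KO. Its groups overlapped and its difference was 0.05 (95% interval -0.18 to 0.27, adjusted p = 0.70), the only one of the 11 above 0. The calls of both Tk1 and Rrm2 were lost when Zip13-KO replicate 1 or 3 was left out. That of Tk1 was also lost when Zip13-KO replicate 2 was left out, and that of Rrm2 when WT replicate 1 or 3 was.

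**Figure D2:**
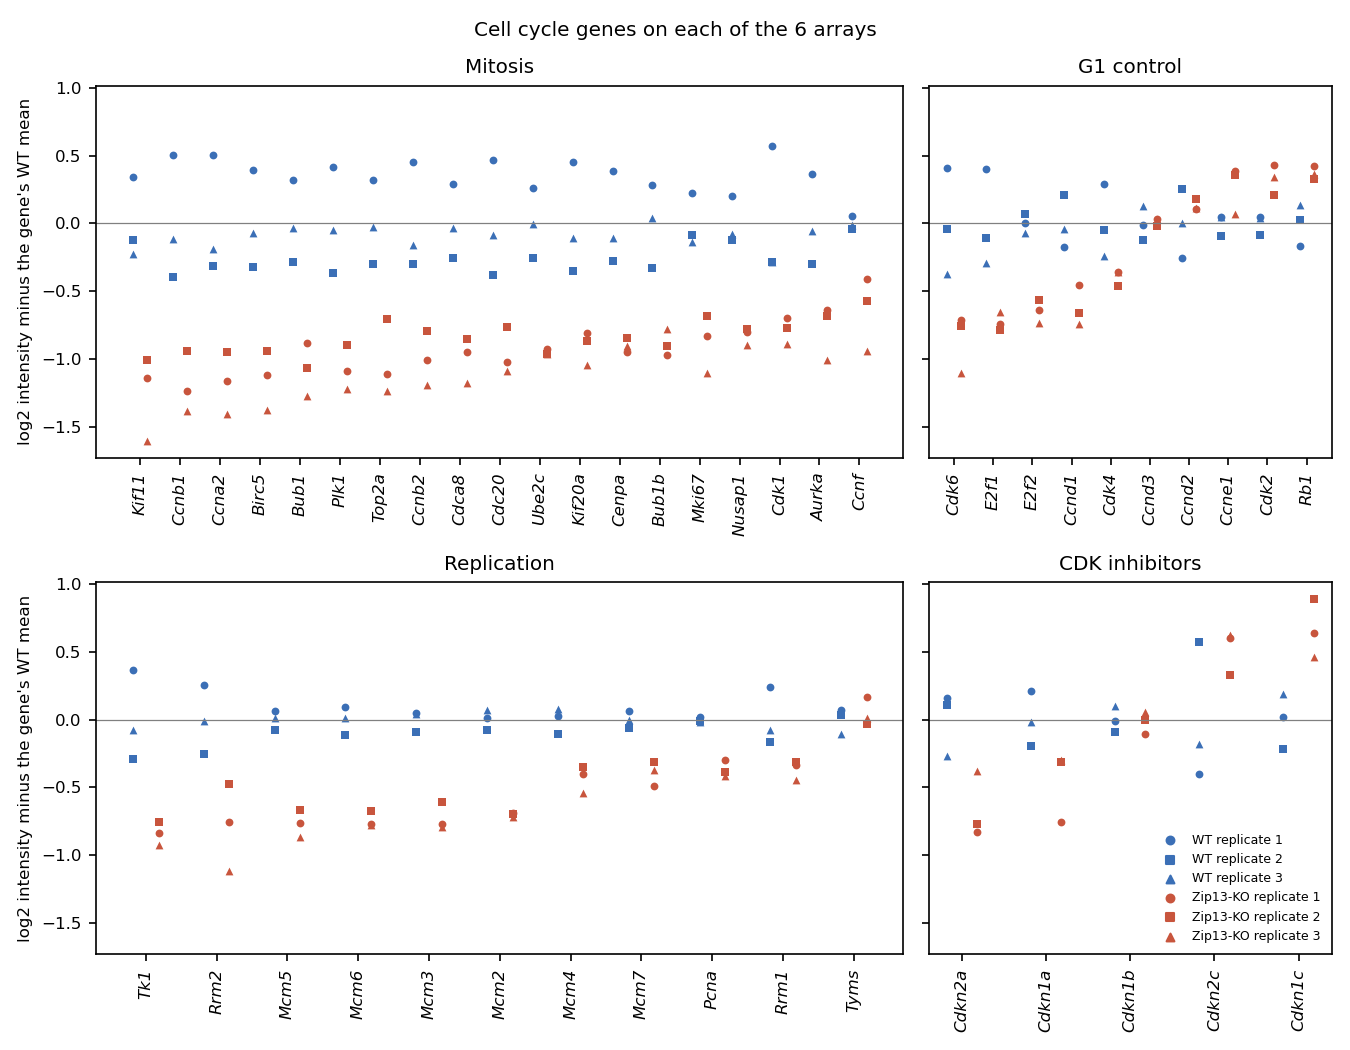
Level of each cell cycle gene on each of the 6 arrays, in log2 intensity minus the gene's WT mean, by role. Blue marks are WT and red marks are Zip13-KO, with circle, square and triangle for replicates 1, 2 and 3. In the mitosis panel WT replicate 1 is the highest WT array for all 19 genes, and all Zip13-KO marks lie below all WT marks of the same gene.

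Mitosis genes fell together. Of the 19 tested, 18 were called lower (94.7%, against 8.38% of all genes) and none was called higher. Every Zip13-KO array was below every WT array for all 19, where 25.9% of all genes had this order. The differences of the 19 genes ran from -1.25 for Kif11 to -0.64 for Ccnf. Among the mitosis genes are the A-type and B-type cyclins, which drive entry into mitosis. Ccnb1, cyclin B1, was 9.11, 8.21 and 8.49 in WT and 7.37, 7.66 and 7.22 in Zip13-KO. Cyclin A2 (Ccna2) was 9.63, 8.81 and 8.94 in WT and 7.96, 8.18 and 7.72 in Zip13-KO, and cyclin B2 (Ccnb2) was 10.63, 9.87 and 10.02 in WT and 9.16, 9.38 and 8.98 in Zip13-KO. In all 3 cyclins WT replicate 1 stood above the other WT arrays, and the WT arrays as a group stayed above the Zip13-KO arrays. Ccnb1 fell 2.27-fold (adjusted p = 0.0165), Ccna2 2.26-fold (adjusted p = 0.0156) and Ccnb2 2-fold (adjusted p = 0.0191). Cdk1, the kinase that cyclins A and B activate, was 8.10, 7.24 and 7.23 in WT and 6.82, 6.75 and 6.63 in Zip13-KO. Its groups did not overlap either, but the spread of the WT arrays was wide and the difference of -0.79 (SE 0.24) had adjusted p = 0.0502, so it was not called. All 19 mitosis genes, Cdk1 among them, were called lower with 75th percentile scaling and with an intensity trend and robust prior. The same held when all 6 arrays had to be well above background. Ccnf, which encodes an F-box protein rather than a CDK partner, was 8.20, 8.11 and 8.13 on the WT arrays and 7.73, 7.57 and 7.20 on the Zip13-KO arrays, with Zip13-KO replicate 3 lowest. It fell 1.56-fold (adjusted p = 0.0201).

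Kinases of mitosis and of the spindle checkpoint were below WT on every Zip13-KO array. Polo-like kinase Plk1 was 10.24, 9.45 and 9.78 in WT and 8.73, 8.92 and 8.61 in Zip13-KO. Aurora kinase A, encoded by Aurka, which matures the spindle poles, was 9.24, 8.58 and 8.82 in WT and 8.24, 8.20 and 7.87 in Zip13-KO. Bub1, a checkpoint kinase at the kinetochore, was 6.42, 5.81 and 6.06 in WT and 5.21, 5.03 and 4.82 in Zip13-KO. None of the 3 overlapped between genotypes, and Plk1 and Bub1 both fell 2.10-fold (adjusted p = 0.0139 and 0.0101) while Aurka fell 1.71-fold (adjusted p = 0.0272). Bub1b, which encodes the checkpoint protein BubR1, was 8.13, 7.52 and 7.89 in WT and 6.87, 6.94 and 7.06 in Zip13-KO. Here Zip13-KO replicate 3 was the highest Zip13-KO array, still below every WT array, and the gene fell 1.85-fold (adjusted p = 0.0123). Aurora kinase B could not be compared, since the single probe for Aurkb was not well above background on any array.

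Genes of the chromosomal passenger complex, the centromere and the spindle were lower as well. Birc5, or survivin, which belongs to the passenger complex, was 11.57, 10.86 and 11.11 in WT and 10.06, 10.24 and 9.80 in Zip13-KO. Another passenger subunit, Cdca8 (borealin), was 10.36, 9.81 and 10.03 on the WT arrays and 9.12, 9.22 and 8.89 on the Zip13-KO arrays. Cenpa, the histone H3 variant that marks centromeres, was 10.02, 9.35 and 9.53 in WT and 8.68, 8.79 and 8.73 in Zip13-KO. The 3 genes fell 2.21-fold, 1.99-fold and 1.87-fold (adjusted p = 0.0118, 0.00949 and 0.0137), without overlap. Kif11, the kinesin that pushes spindle poles apart, was 6.77, 6.30 and 6.19 in WT and 5.28, 5.41 and 4.82 in Zip13-KO. By the probe that stood for each gene, it had the largest fall of the 45 genes, 2.38-fold (SE 0.21 in log2 units, adjusted p = 0.0103). Zip13-KO replicate 3 was well below the other Zip13-KO arrays. Dimmer probes of Ccnb1, which did not stand for that gene, had larger differences of -1.30 and -1.60. Kif20a, a kinesin of cytokinesis, was 8.44, 7.64 and 7.88 in WT and 7.18, 7.12 and 6.94 in Zip13-KO. Nusap1, which bundles spindle microtubules, was 8.48, 8.15 and 8.20 in WT and 7.47, 7.499 and 7.38 in Zip13-KO. Kif20a fell 1.88-fold (adjusted p = 0.022) and Nusap1 1.77-fold (adjusted p = 0.00652), and neither overlapped.

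The anaphase genes and the usual marks of proliferation completed the group. Cdc20, which activates the anaphase-promoting complex, was 10.33, 9.47 and 9.77 in WT and 8.84, 9.10 and 8.77 in Zip13-KO. Ube2c, the ubiquitin-conjugating enzyme of that complex, was 9.63, 9.11 and 9.37 on the WT arrays and 8.44, 8.41 and 8.40 on the Zip13-KO arrays. The Zip13-KO arrays for Ube2c lay within 0.04 of each other, far below the WT arrays. Cdc20 fell 1.94-fold (adjusted p = 0.0234) and Ube2c 1.93-fold (adjusted p = 0.00737). Top2a, the topoisomerase that untangles sister chromatids, was 8.90, 8.29 and 8.56 in WT and 7.48, 7.88 and 7.35 in Zip13-KO. Mki67, which encodes the proliferation antigen Ki-67, was 10.99, 10.68 and 10.63 in WT and 9.94, 10.09 and 9.67 in Zip13-KO. The groups did not overlap in either gene, and Top2a fell 2.02-fold (adjusted p = 0.0148) and Mki67 1.83-fold (adjusted p = 0.0104).

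The arrays differed within genotypes in a way shared by the mitosis genes. WT replicate 1 was the highest WT array for 19 of 19 genes, WT replicate 2 the lowest for 16, and Zip13-KO replicate 3 the lowest Zip13-KO array for 17. Of all 15306 genes tested, 5481, 4230 and 5515 had these orders. The stromal progenitor markers were also highest on WT replicate 1, in 13 of 13 genes, as were the mammary epithelial markers in 7 of 7. The rest of the order was not found among the 13 stromal progenitor genes, where WT replicate 2 was lowest for 2 and Zip13-KO replicate 3 for 0. It was found in other cell cycle genes. Of the 11 replication genes, WT replicate 1 was the highest WT array for 9, WT replicate 2 the lowest for 9, and Zip13-KO replicate 3 the lowest Zip13-KO array for 9. For the 60 further mitosis genes described below, these numbers were 51, 47 and 33. The median SD over the 19 mitosis genes was 0.336 in WT and 0.197 in Zip13-KO, compared with 0.092 and 0.089 over the replication genes. Without WT replicate 1, 18 mitosis genes were called lower and the median difference was -0.769. When Zip13-KO replicates 1, 2 and 3 were left out in turn, 8, 14 and 11 mitosis genes were called lower, while the median difference was -0.962, -1.054 and -0.899. Leaving out replicate 1 removed the calls of Aurka, Bub1b, Ccna2, Ccnb1, Ccnb2, Cdc20, Cenpa, Kif20a, Plk1 and Top2a. Leaving out replicate 3 removed those of Aurka, Ccna2, Ccnb1, Ccnb2, Ccnf, Cdc20 and Kif20a, while Aurka, Ccnf, Cdc20 and Kif20a lost theirs when replicate 2 was left out, and Aurka alone when WT replicate 3 was. With normexp background correction Kif11 (-0.53), Bub1 (-0.46) and Ccnf (-0.49) were no longer called, nor were Bub1 and Ccnf with the deposited values. Cdca8, Nusap1 and Ube2c were called lower under all 18 other settings.

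**Figure D3:**
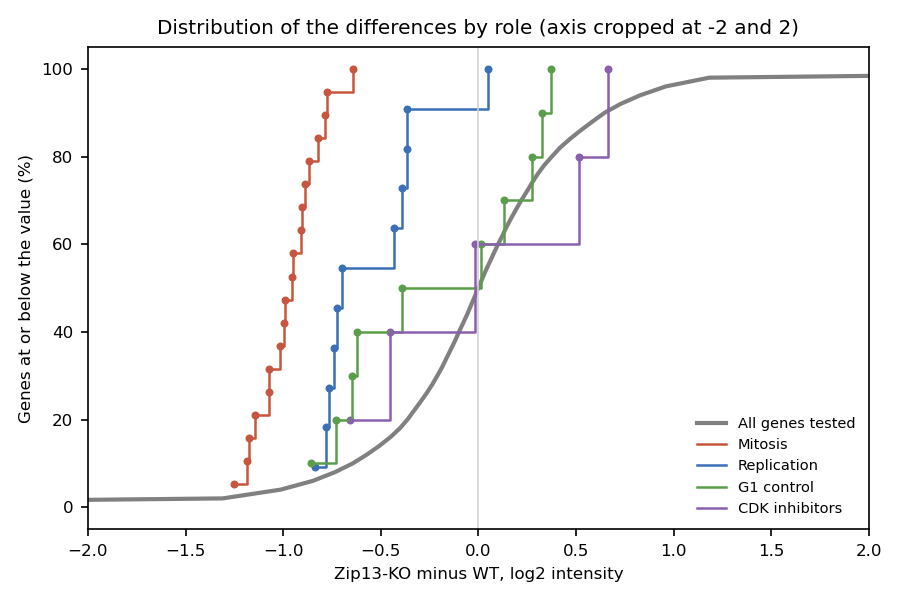
Cumulative share of genes, in percent, at or below each difference (Zip13-KO minus WT in log2 intensity) for the 4 roles and for all genes tested (grey). The mitosis curve reaches 100% below 0, the replication curve has 1 gene above 0, and the curves of the G1 control genes and CDK inhibitors cross the grey curve.

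Genes that control G1 did not move in 1 direction. Of 10 tested, 4 were called lower (Cdk6, E2f1, E2f2 and Ccnd1), which is 40%, against 8.38% of all genes. None was called higher, where 10.3% of all genes were. A difference above 0 was found for 5 of the 10, and for 7645 of all 15306 genes. The activating transcription factor E2f1 was 9.58, 9.07 and 8.89 in WT and 8.43, 8.39 and 8.53 in Zip13-KO, with all Zip13-KO arrays close together and below WT. It fell 1.66-fold (SE 0.18, adjusted p = 0.0274), and the call was lost without any 1 array other than WT replicate 3. E2f2, a related activator, was 10.73, 10.79 and 10.65 in WT and 10.08, 10.16 and 9.99 in Zip13-KO. Here both groups were tight and apart, with a fall of 1.57-fold (SE 0.08, adjusted p = 0.00628) that was called whichever array was left out, but not with normexp or with the deposited values.

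The D-type cyclins, which carry growth signals to Cdk4 and Cdk6, differed among themselves. Ccnd1 was 11.73, 12.12 and 11.87 in WT and 11.45, 11.24 and 11.16 in Zip13-KO. It was the only one of the 3 called, with a fall of 1.54-fold (adjusted p = 0.0171) that lies close to the 1.5-fold limit, and its WT order was unlike that of the mitosis genes because WT replicate 1 was the lowest WT array. Ccnd2 was 12.31, 12.82 and 12.57 on the WT arrays and 12.67, 12.74 and 12.68 on the Zip13-KO arrays, and the Zip13-KO arrays lay inside the WT range. Ccnd3 also overlapped, with differences of 0.13 for Ccnd2 (95% interval -0.20 to 0.46) and 0.02 for Ccnd3 (95% interval -0.20 to 0.23). The call for Ccnd1 was lost when WT replicate 2 or Zip13-KO replicate 2 or 3 was left out, and with 75th percentile scaling.

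Their kinase partners were split as well. Cdk6 was 5.17, 4.72 and 4.39 in WT and 4.05, 4.001 and 3.66 in Zip13-KO. It was well above background on only 1 of the 3 Zip13-KO arrays and passed the filter through the WT arrays alone. The fall of 1.81-fold (adjusted p = 0.0287) therefore rests on dim signals. It lost its call when WT replicate 2 or any 1 Zip13-KO array was left out, and with normexp (-0.29), the deposited values or no filter on dim probes. Cdk4 had a difference of -0.39 (95% interval -0.74 to -0.05, adjusted p = 0.0773). Cdk2, the partner of cyclin E, was 7.61, 7.48 and 7.60 in WT and 8.00, 7.77 and 7.91 in Zip13-KO. All Zip13-KO arrays were above all WT arrays, with a difference of 0.33 (adjusted p = 0.0358) that was under 1.5-fold. Rb1, the brake that the G1 kinases release, was 10.84, 11.03 and 11.14 in WT and 11.42, 11.33 and 11.37 in Zip13-KO. It too was higher on every Zip13-KO array, by 0.37 (SE 0.10, adjusted p = 0.0324), under 1.5-fold. Ccne1, cyclin E1, had a difference of 0.27 (adjusted p = 0.101), and its second, dimmer probe one of -0.10. Ccne2 was not tested, since its probe was not well above background on any array.

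Among the CDK inhibitors 1 rose, 1 fell and 3 did not pass the test. With only 5 genes, 1 gene is 20%, where 10.3% of all genes were called higher and 8.38% lower. Cdkn1c, which encodes p57 and is transcribed from the maternal allele, was 9.57, 9.33 and 9.74 in WT and 10.19, 10.43 and 10.01 in Zip13-KO. All Zip13-KO arrays were above all WT arrays, and it rose 1.59-fold (SE 0.15 in log2 units, adjusted p = 0.0212). The call was lost when WT replicate 2 or Zip13-KO replicate 1 or 2 was left out. Cdkn2a, whose locus encodes p16INK4a and p19ARF from different first exons, was 7.09, 7.04 and 6.67 in WT and 6.11, 6.16 and 6.56 in Zip13-KO. It fell 1.58-fold (SE 0.17, adjusted p = 0.0299), although Zip13-KO replicate 3 and WT replicate 3 were only 0.11 apart. Leaving out WT replicate 1, WT replicate 2, Zip13-KO replicate 1 or Zip13-KO replicate 2 removed the call, as did normexp (-0.39), the deposited values and no filter on dim probes, and which of the 2 products the probe reads was not determined.

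The brakes p21 and p27 and the INK4 protein p18 were the 3 that did not pass. Cdkn1a, which encodes p21, was 10.73, 10.32 and 10.49 on the WT arrays and 9.76, 10.20 and 10.21 on the Zip13-KO arrays. Every Zip13-KO array was below every WT array, but the difference of -0.46 (95% interval -0.86 to -0.05) had adjusted p = 0.0786. A dimmer probe for another Cdkn1a transcript did not stand for the gene. It passed the filter through the WT arrays alone, since it was well above background on 0 of 3 Zip13-KO arrays. Its measured difference of -1.62 (SE 0.38) rests on that selection and on dim signals. Cdkn1b, which encodes p27, was 11.48, 11.39 and 11.59 in WT and 11.38, 11.49 and 11.54 in Zip13-KO. The groups were interleaved, and the difference was -0.02 (95% interval -0.23 to 0.20). Cdkn2c, which encodes p18INK4c, was 10.98, 11.96 and 11.20 in WT and 11.98, 11.71 and 12.00 in Zip13-KO. WT replicate 2 stood within the Zip13-KO range, and the difference of 0.52 had a wide interval (-0.11 to 1.14, adjusted p = 0.161). Over the arrays left out it ran from 0.32 to 0.805, and Cdkn2c was called higher when WT replicate 2 was left out.

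Other genes of the same pathways were counted from lists that were not trimmed by how the genes moved. These lists were chosen with earlier results of these data known, so the shares below are descriptions and no separate test. Among 60 tested of 65 further mitosis genes, 34 were called lower and none higher, with a median of -0.706. Cdc25c, the phosphatase that activates Cdk1, was well above background on 3 of 3 WT arrays and 0 of 3 Zip13-KO arrays. With the main processing it was at least 1.78-fold lower on the latter (adjusted p = 0.0241 in limma). That bound does not hold for other processing, since its difference was smaller with normexp and with the deposited values, as given below. Since it passed the filter through the WT arrays alone, where it was high, its call rests partly on that selection. The kinesin Kif18b also passed through the WT arrays alone, being well above background on 1 of 3 Zip13-KO arrays (-1.31, adjusted p = 0.00735). Other called genes were the kinase Pbk (-1.29, adjusted p = 0.0123), the kinesin Kif4 (-1.28, adjusted p = 0.0189), and Prc1, which bundles microtubules of the central spindle (-1.20, adjusted p = 0.0191). With normexp the differences of Cdc25c (-0.33), Kif18b (-0.29) and Kif4 (-0.48) were no longer called and that of Pbk was -0.69. With the deposited values Cdc25c (-0.44) and Kif18b (-0.41) were not called either, and Kif4 was -0.61. Among 43 tested of 44 further replication genes, 8 were called lower and none higher, with a median of -0.225. Of the genes called, the largest falls were in Dbf4, the activator of the Cdc7 kinase that fires origins (-0.99, adjusted p = 0.00652), and Uhrf1, which keeps DNA methylation through replication (-0.82, adjusted p = 0.00835). Next among the called genes were the histone chaperones Chaf1b (-0.72, adjusted p = 0.0179) and Asf1b (-0.69, adjusted p = 0.0142) and by the flap endonuclease Fen1 (-0.67, adjusted p = 0.00903). Dbf4 lost its call with normexp (-0.58). Thus 56.7% of further mitosis genes and 18.6% of further replication genes were called lower, where 8.38% of all genes were.

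Among 28 tested of 29 further G1 regulators, 2 were called lower (7.14%) and 1 higher (3.57%), shares below the 8.38% and 10.3% of all genes, with a median of 0.029. The 2 that fell were Cdkn3, a phosphatase of CDKs (-0.94, adjusted p = 0.0202), and E2f8, a repressor of E2F targets (-0.87, adjusted p = 0.0136). Cdkn2b, which encodes the CDK inhibitor p15INK4b, rose by 0.59 (SE 0.13, adjusted p = 0.0181). With normexp E2f8 (-0.50) and Cdkn2b (0.51) were not called, nor was Cdkn2b with the deposited values (0.54). Targets of p53, the factor that induces Cdkn1a after DNA damage, were divided, with 5 of 22 called lower (22.7%), 2 called higher (9.09%, near the 10.3% of all genes) and a median of 0.016. Gtse1 (-1.17, adjusted p = 0.00854) and Ckap2 (-0.97, adjusted p = 0.0289), which are themselves genes of the mitotic spindle or of late cell cycle phases, had the largest falls among those called. Next were Cd80, a co-stimulatory protein of antigen-presenting cells (-0.76, adjusted p = 0.00909), and the apoptosis genes Bax (-0.70, adjusted p = 0.00487) and Pmaip1 (-0.69, adjusted p = 0.00709). Those that rose were Rrm2b, the p53-induced subunit of ribonucleotide reductase (0.74, adjusted p = 0.0141), and Tnfrsf10b, a death receptor (0.62, adjusted p = 0.00766). Gtse1 (-0.41), Ckap2 (-0.40), Rrm2b (0.31) and Tnfrsf10b (0.54) were not called with normexp, and with the deposited values these 4 genes were not called either (-0.55, -0.48, 0.44 and 0.55). Of the 20 further pathway genes named, 9 were called whichever array was left out. Leaving out Zip13-KO replicate 1 removed the calls of Asf1b, Cdkn2b, Cdkn3, Chaf1b, Ckap2, E2f8, Kif4, Prc1 and Rrm2b. Leaving out Zip13-KO replicate 2 removed those of Cdc25c, Cdkn2b, Cdkn3, Chaf1b, Ckap2, Prc1 and Tnfrsf10b, and Zip13-KO replicate 3 those of Cdc25c, Cdkn3, Ckap2 and Prc1. Calls of Cdkn2b, Chaf1b and Tnfrsf10b were lost when WT replicate 1 was left out, and those of Cdc25c and Ckap2 when WT replicate 2 was.

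**Figure D4:**
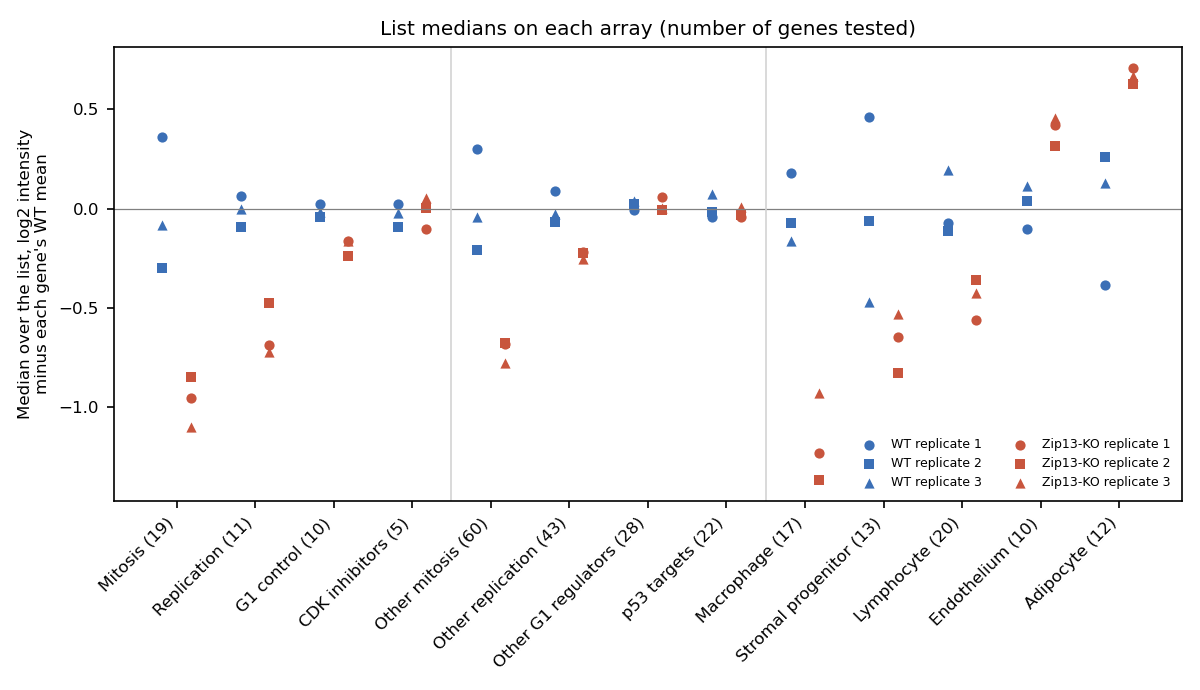
Median over each gene list on each of the 6 arrays, in log2 intensity minus each gene's WT mean, with the number of genes tested in brackets. From left to right are the cell cycle genes by role, further genes of the same pathways, and cell type markers. The further mitosis genes show the same order of WT arrays as the mitosis genes, the macrophage list is lower on all Zip13-KO arrays, and the stromal progenitor list is highest on WT replicate 1.

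Markers of cell types in fat also differed between the genotypes, and their part in the differences above was not tested. All 17 macrophage markers were measured, 14 of them were called lower (82.4%, against 8.38% of all genes), and the median was -1.20. Their summed linear intensity ran from 90100 to 134000 in WT and from 43200 to 53700 in Zip13-KO. Adgre1, which encodes F4/80, fell from 12.31 ± 0.50 to 10.67 ± 0.33, and Cd68 from 13.82 ± 0.45 to 11.95 ± 0.37 (SD, n = 3 arrays each, adjusted p = 0.011 and 0.00775). Of 13 markers of stromal progenitors 4 were called lower (30.8%), with a median of -0.668. Their sums ran from 305000 to 671000 in WT and from 262000 to 321000 in Zip13-KO. Pdgfra, the receptor that defines adipocyte progenitors, was 11.29 ± 0.36 in WT and 10.64 ± 0.17 in Zip13-KO (SD, n = 3 each; adjusted p = 0.0457).

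Lymphocyte markers differed less, with 2 of 20 called lower (10%, near the 8.38% of all genes) and a median of -0.397. All 20 were below 0, and every Zip13-KO array was below every WT array for 15, where 25.9% of all genes had this order. Their sums were 97400 to 121000 in WT and 70900 to 79300 in Zip13-KO. Neither the B cell marker Cd79a (-0.37, adjusted p = 0.0577) nor the T cell marker Cd3e (-0.39, adjusted p = 0.0915) was called. Adipocyte markers went the other way, with 5 of 12 called higher (41.7%, against 10.3% of all genes) and a median of 0.673. Their sums were 492000 to 683000 in WT and 809000 to 846000 in Zip13-KO, although Adipoq itself was under 1.5-fold (0.41, adjusted p = 0.0499). Endothelial markers were called higher for 3 of 10 (30%), with a median of 0.396. Their sums were 15700 to 17100 in WT and 20400 to 22100 in Zip13-KO, and Pecam1 was 0.13 (adjusted p = 0.318). None of 7 mammary epithelial and 9 skeletal muscle markers tested passed the test. Krt14 was 0.18 (adjusted p = 0.442) and the muscle creatine kinase Ckm was 1.15 (adjusted p = 0.32), with an SD of 1.27 in WT. Of 6 erythroid markers 1 was called lower (16.7%), with sums of 203000 to 311000 in WT and 134000 to 189000 in Zip13-KO. All 8 thermogenic markers, which describe brown and beige adipocytes, were called higher, with sums of 36000 to 58000 in WT and 161000 to 251000 in Zip13-KO.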

How the data were processed

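RNA from iWAT of 3 WT and 3 Zip13-KO samples was hybridised to 6 single-colour Agilent mouse arrays on 1 slide. The deposited scanner files hold intensity values made by the authors with Feature Extraction 11.5.1.1, of which the background-corrected processed signal was used. The authors' deposited table of log2 values was used as an alternative. Control and outlier spots were left out, spots of a probe were averaged, and log2 intensity was quantile normalized, as in the study's methods. A probe was kept if every array of one genotype or of the other measured it well above background (33046 of 55681 probes). Probes were named by RefSeq accession (GRCm38.p6), which gave 28331 probes a symbol, and the kept probe with the brightest mean stood for a gene (15306 genes). Of the 10 cell cycle genes with more than 1 kept probe, the probes differed in sign for Ccnd3 and Ccne1.

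Genotypes were compared with limma 3.58.1 in R 4.3.3 (lmFit, eBayes, no covariate, all 6 arrays), with Benjamini-Hochberg adjustment over all genes. The thresholds follow the study, whose combined test is not given in enough detail to repeat. The fit was tested on simulated data. The number of arrays limits the precision, and differences of dim probes depend on the background correction.

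The 47 genes and all lists were chosen with earlier results of these data known. Any of the 47 could be named, with array values for those called and for the inhibitors; of the pathway lists, up to 5 called genes per direction with the largest change were named, and of the cell type lists the defining markers. The alternatives were 75th percentile scaling, normexp background correction with offset 50 (on the median signal), the deposited table, other filters, the mean of a gene's probes, an intensity trend with robust prior, other thresholds, the methods' t-test, the replicate number as a block, and leaving out each array. A slide block does not apply with 1 slide.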

Additional observations from a re-analysis of the deposited data

How the results depend on the processing

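Of the values of the 45 cell cycle genes tested over the alternatives, 809 in all, 682 kept their direction and side of the threshold, 110 no longer passed, 10 newly passed and 7 changed sign, and 7 of the 30 called genes kept their call throughout. The sign changes were all in genes that were not called. Tyms was -0.004 without WT replicate 3 and -0.011 without Zip13-KO replicate 1 (-0.011 to 0.092 over the arrays left out), Ccnd3 was -0.008 with the mean of its probes and -0.046 without WT replicate 2 (-0.046 to 0.081), and Cdkn1b was 0.048 with 75th percentile scaling, 0.036 without WT replicate 3 and 0.028 without Zip13-KO replicate 1 (-0.063 to 0.036). Cell cycle genes called lower numbered 8 at an adjusted p under 0.01 and 14 by the methods' t-test after Benjamini-Hochberg adjustment, and 14 to 27 when 1 array was left out. Those called higher numbered 3 with no fold threshold, and 0 at an adjusted p under 0.01 and by the adjusted t-test, with 0 to 1 when 1 array was left out. Without WT replicate 2 the single gene called higher was Cdkn2c and not Cdkn1c. All genes called higher numbered 2951 with no fold threshold, 707 at an adjusted p under 0.01, 1007 by the adjusted t-test and 961 to 1672 when 1 array was left out. All genes called lower numbered 2330, 505 and 721 under those settings, and 782 to 1455 when 1 array was left out. By the t-test the p was under 0.05 unadjusted, with a change over 1.5-fold, for 29 cell cycle genes lower and 1 higher. The replication median was -0.59 with normexp. The G1 control median was -0.078 with 75th percentile scaling, -0.126 with normexp, 0.001 with no filter, 0.015 when all 6 arrays had to be well above background, and -0.231 to -0.122 when 1 array was left out; the causes were not tested. Samples that share a replicate number did not deviate together (r = -0.021, 0.038 and -0.08) and none correlated best with its own number. Such correlations cannot exclude a pairing, and whether the numbers pair the samples is not given in the sources used here. With the numbers as a replicate block 23 cell cycle genes were called lower and 0 higher.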
